A study of Mus musculus with 6 samples.

Results

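The MYC, MAX and MXD network was followed through 10 genes, Myc, Mycn, Max, Mxi1, Mxd1, Mxd3, Mxd4, Mnt, Mlx and Mlxip, which were taken by gene name from a deposited table of 22880 genes. All 10 were in the table, and 9 of them had enough reads to be tested, Mycn being left out. The RNA came from MC-38 cells, a mouse colon adenocarcinoma line, that carried green fluorescent protein and had grown as orthotopic tumors in the cecum wall of C57BL/6J mice. The 3 Mock libraries came from cells transduced with pLKO.1-puro, a lentiviral vector for short hairpin RNA, that served as the control. The 3 HIF-1α-KD libraries came from cells transduced with the same vector, with a stable knock-down of HIF-1α, the oxygen-regulated subunit of the hypoxia-inducible factor. None of the cells had been passaged in vivo, and the tumor stroma of the host kept its own HIF-1α. Living tumor cells positive for GFP and negative for CD45 and CD31 were sorted before sequencing, so that a difference can reflect fewer cells of a kind or less RNA per cell, which bulk libraries cannot tell apart. Whether a library stands for 1 tumor or for several, and whether the transduced cells were a clone, is not given in the sources used here, so the spread between libraries may be partly technical.

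MYC and MYCN are transcription factors of the basic helix-loop-helix leucine zipper class, which bind the E-box CACGTG as a dimer with MAX and raise the transcription of genes for growth, ribosome production and metabolism. MXD1, MXI1, MXD3, MXD4 and MNT compete for MAX and, in such dimers, recruit SIN3 and histone deacetylases to the same sites to repress transcription. MLX forms a parallel branch, in which it pairs with MLXIP (MondoA), a sensor of glucose metabolites, and also with some of the MXD proteins and MNT. MXI1 is a known target of HIF-1, through which hypoxic cells restrain MYC, and colorectal cancers commonly carry raised MYC through WNT signaling.

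Promoters of the network genes were read from RefSeq (GRCm38.p6), which held 11 promoter windows for 9 of the 10 genes, all but Myc. Each window spans 250 bases before to 50 bases after a start. The sequences shown are those of Mxi1, the gene with the largest difference, at its upstream start (chr19:53310256-53310505, plus strand) and at a second start (chr19:53329163-53329412, plus strand), and of Mlx, the gene with the highest level (chr11:101087040-101087276, plus strand). Each is given 5′ to 3′ up to the start or the first annotated exon, whichever comes first, and capitals mark the E-box CACGTG and the shorter motifs ACGTG and GCGTG, searched on both strands.
Mxi1 upstream start: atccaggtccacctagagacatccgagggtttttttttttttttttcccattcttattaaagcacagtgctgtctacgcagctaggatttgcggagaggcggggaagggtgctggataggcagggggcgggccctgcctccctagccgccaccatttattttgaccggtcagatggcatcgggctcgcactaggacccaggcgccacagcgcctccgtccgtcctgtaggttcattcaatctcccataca
Mxi1 second start: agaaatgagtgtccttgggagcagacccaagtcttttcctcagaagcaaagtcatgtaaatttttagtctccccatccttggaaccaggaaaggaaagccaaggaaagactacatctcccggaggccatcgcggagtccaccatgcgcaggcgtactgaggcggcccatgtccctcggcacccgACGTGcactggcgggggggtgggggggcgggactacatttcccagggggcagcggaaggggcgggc
Mlx start: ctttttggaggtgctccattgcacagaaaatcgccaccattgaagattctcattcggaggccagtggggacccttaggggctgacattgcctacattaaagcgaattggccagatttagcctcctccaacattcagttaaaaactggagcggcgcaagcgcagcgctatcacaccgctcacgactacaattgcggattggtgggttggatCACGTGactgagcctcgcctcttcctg
The core of a HIF binding site reads ACGTG or GCGTG. The window of the upstream Mxi1 start held none of the 3 motifs, whereas that of the second start held 1 ACGTG, at position -66 relative to the start. A further Mxi1 window, which runs into an annotated exon, held 1 ACGTG at position -25. CACGTG, which contains ACGTG on both strands, stood in the windows of 4 genes, Max at position -3, Mxd4 at position -219, Mnt at position -123 and Mlx at position -40. Among the 11 windows, 4 held CACGTG, 6 held ACGTG and 4 held GCGTG, the last being those of Max, Mxd1, Mnt and Mlxip. Of all 32851 promoter windows of that length, 7.15% held CACGTG, 19.6% held ACGTG and 32.4% held GCGTG. These matches describe letters in a window and not binding, and the counts are per gene, so the start from which Mxi1 was transcribed is not known.

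Reads on genes numbered between 19845852 and 30809140 per library. Values are given as normalized counts, which are reads divided by 1 factor per library, and levels between genes are compared as FPKM, which are reads scaled to the length of the gene model and to the size of the library. Normalized counts were compared between groups with limma on log2 of the count plus 1, and a log2 fold change above 0 stands for more RNA in HIF-1α-KD cells. A gene was called at an adjusted p-value under 0.05, adjusted over the 12014 genes tested. Hif1a (chromosome 12, 73901375 to 73947530), the gene targeted, had lower values in each HIF-1α-KD library than in any Mock library, although it was not called itself (log2 fold change -1.82, standard error or SE 0.46, limma adjusted p = 0.219). Of the markers of other cells, the sum of 10 leukocyte genes lay between 3804 and 3949 normalized counts in Mock libraries and was 2530, 2787 and 12120 in HIF-1α-KD replicates 1, 2 and 3, so that the last library stood apart. Most of the leukocyte sum was Lyz2 in every library, at 8877 normalized counts in HIF-1α-KD replicate 3, where Cd68 was also highest, at 657.3. Cd79a was lowest in that library, at 119, and Cd3e did not exceed 2.46 in any library. The sum of 6 endothelial genes lay between 751 and 1727 for Mock and between 1342 and 1778 for the knock-down. Its members differed, with Emcn at no more than 0.0492 FPKM, Cdh5 (log2 fold change -0.84) below Mock in every HIF-1α-KD library, and Flt1 at up to 19.5 FPKM (log2 fold change 1.16). The sum of 7 fibroblast and pericyte genes lay between 31595 and 51376 for Mock and between 24736 and 39681 for the knock-down and was mostly Dcn, while Cspg4 (log2 fold change 1.42) and Rgs5 (log2 fold change 1.15) were above Mock in every HIF-1α-KD library. Of these, 4 endothelial and 7 fibroblast and pericyte genes were tested, and none was called (limma adjusted p of at least 0.294). An unadjusted p-value under 0.05 was found for 2 of the 4, Cdh5 and Flt1, and for 3 of the 7, Cspg4, Rgs5 and Pdgfrb. These are larger shares than the 12.7% of all genes. Of the 9 leukocyte and 4 colon epithelial genes tested, 0 and 0 were under that limit. The 8 epithelial markers of the colon were low, from Cdx2 at no more than 0.0419 FPKM and Epcam at no more than 0.719 FPKM to Krt8 and Lgals4 at up to 4.15 and 4.26 FPKM. Their sum was 558 normalized counts in Mock replicate 3 and between 76.6 and 146 in the other libraries, so that this Mock library stood apart. These marker genes were chosen for display after their values were seen, and the part of these cells in the results was not tested.

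Mxi1 was called lower in HIF-1α-KD cells, and it was the single network gene called in either direction. At an adjusted p-value under 0.05, 1 of the 9 genes tested was lower and 0 were higher, where 0.383% and 0.00832% of all genes tested were, and 0.391% in either direction. At an unadjusted p-value under 0.05, Mxi1 and Mnt were on the lower side and Mlxip on the higher side, 3 of 9, where 12.7% of all genes were in either direction (5.69% lower and 7.04% higher). Of all genes under that limit 846 were higher and 683 lower, and with scaling by library size 1085 were higher and 524 lower, and with that scaling Mnt was no longer under the limit. With the edgeR quasi-likelihood test on recovered reads, Mxi1 alone was under that limit. The groups did not overlap in Mxi1, Mlx and Mlxip, 3 of 9, where 19.2% of all genes did not (10.4% with HIF-1α-KD above and 8.75% with HIF-1α-KD below). The median log2 fold change of the 9 genes was -0.06, and that of all genes tested was 0.02. The changes of the network genes were not tested against each other.

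**Figure D1:**
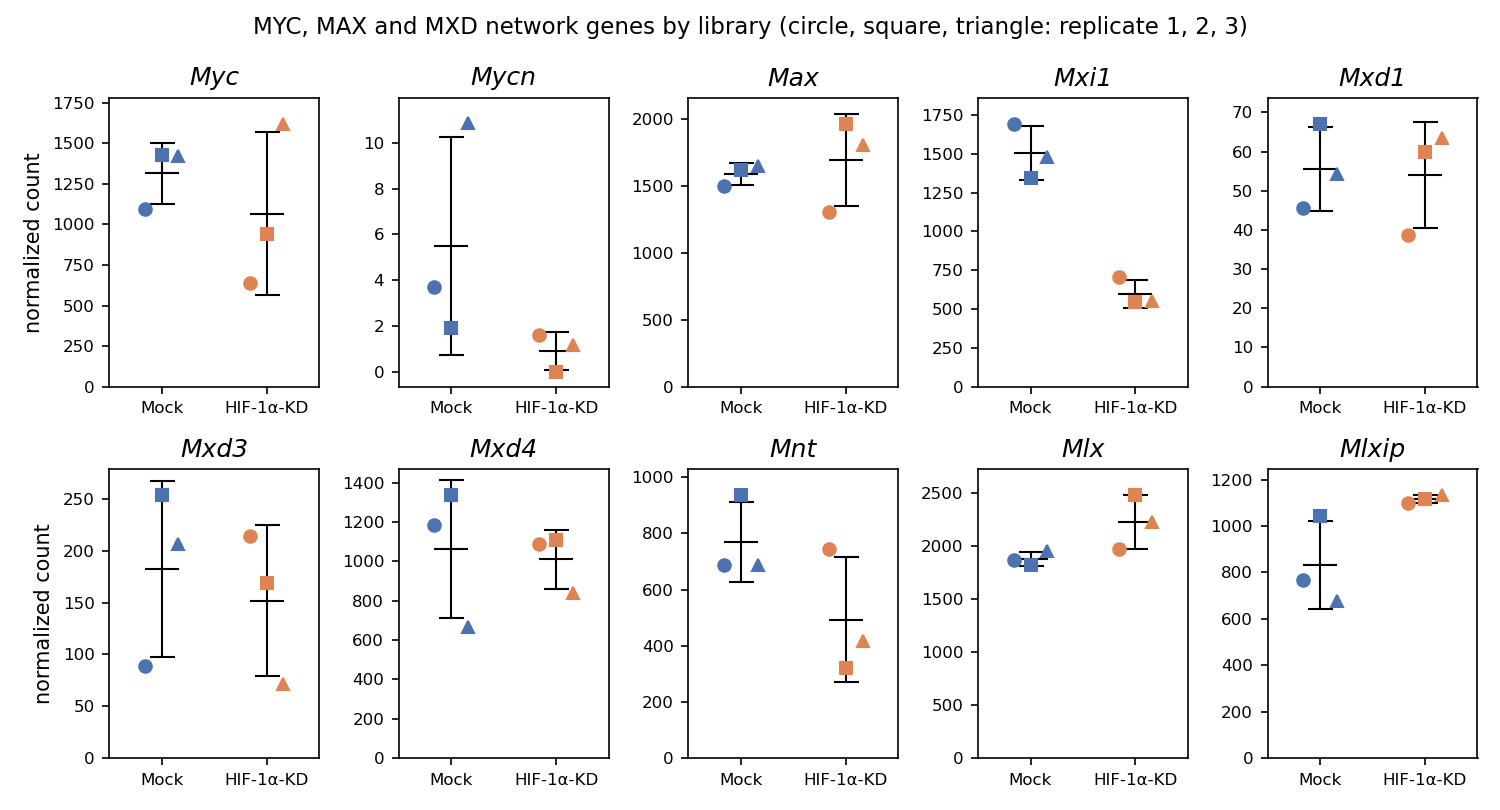
Normalized counts of the 10 network genes (y axis, 1 scale per gene) in 3 Mock and 3 HIF-1α-KD libraries, with the mean and SD as a dash and whiskers. The Mxi1 values lie between 1344 and 1691 for Mock and between 544.4 and 703.8 for the knock-down, while the values of Myc, Max, Mxd1, Mxd3, Mxd4 and Mnt overlap between the groups.

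Mxi1 (ENSMUSG00000025025, chromosome 19, 53310518 to 53375810, plus strand), whose product pairs with MAX in place of MYC, had 1691, 1344 and 1481 normalized counts in the Mock libraries, against 703.8, 544.4 and 549.8 after the knock-down. Every HIF-1α-KD library lay below every Mock library, and the lowest Mock value was well clear of the highest HIF-1α-KD value. The mean fell from 1505 ± 175 (SD, n = 3) to 599 ± 90.5 (SD, n = 3), which is 2.52-fold lower on the log2 scale of the fit (log2 fold change -1.33, SE 0.17, 95% interval -1.72 to -0.94, limma adjusted p = 0.0242). Only 15 genes had a smaller p-value, as Mxi1 ranked 16 of 12014. The adjusted p-value was 0.0238 with the edgeR quasi-likelihood test and 2.0e-08 with the Wald test of DESeq2. In limma it was 0.0987 with a prior variance that does not follow the mean and 0.0649 with the replicate number as a block. In neither of these limma fits was Mxi1 called. The call was lost when any 1 library other than HIF-1α-KD replicate 1 was left out, while the fold change moved little. Without Mock replicates 1, 2 and 3 the log2 fold change was -1.24, -1.41 and -1.34 (limma adjusted p = 0.108, 0.0751 and 0.0954), and -1.27 in each case with HIF-1α-KD replicate 2 or 3 left out (limma adjusted p = 0.0992 and 0.0621). It was -1.45 with HIF-1α-KD replicate 1 left out (limma adjusted p = 0.0276).

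Within the HIF-1α-KD libraries, the order of Mxi1 was not that of Hif1a. Hif1a had 697.3, 3142 and 1928 normalized counts in HIF-1α-KD replicates 1, 2 and 3, and the library with the least Hif1a RNA was the one with the most Mxi1 RNA. These are 3 libraries, and no test was made of that order. Among the 10046 tested genes with a mean of at least 100 normalized counts, those whose log2 values ran most like Mxi1 over the 6 libraries were Ldha (Pearson r = 0.998), which makes lactate from pyruvate, Egln1 (r = 0.998), the prolyl hydroxylase that marks HIF-1α for degradation, Pgam1 (r = 0.989), a glycolytic mutase, Soat1 (r = 0.989), which esterifies cholesterol, and Ephx1 (r = 0.988), an epoxide hydrolase. The 6 libraries form 2 groups, so that these correlations contain the difference between the groups. The correlation of Hif1a itself with Mxi1 was r = 0.707.

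Mnt (ENSMUSG00000000282, chromosome 11, 74830920 to 74845725, plus strand), the widely expressed MAX partner that represses E-box genes, had 686.9, 935.0 and 687.3 normalized counts in the Mock libraries, against 743.2, 319.0 and 415.8 after the knock-down. HIF-1α-KD replicate 1 lay inside the Mock range, and the other 2 lay below it. The mean of 770 ± 143 (SD, n = 3) for Mock stood beside 493 ± 222 (SD, n = 3) for the knock-down, with a log2 fold change of -0.72 (SE 0.30, limma adjusted p = 0.382). Leaving out HIF-1α-KD replicate 1 gave a log2 fold change of -1.06 (limma adjusted p = 0.131) and leaving out HIF-1α-KD replicate 2 gave -0.45 (limma adjusted p = 0.684), so that each of these libraries decided the size.

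The MXD genes other than Mxi1 showed no difference beyond their spread. Mxd4 (ENSMUSG00000037235, chromosome 5, 34173883 to 34187720, minus strand), the MXD gene with the highest mean FPKM, had 1182, 1334 and 668.0 normalized counts in the Mock libraries, against 1086, 1108 and 836.3 after the knock-down (log2 fold change -0.02, 95% interval -0.62 to 0.58, limma adjusted p = 0.98). Mxd3 (ENSMUSG00000021485, chromosome 13, 55325168 to 55329823, minus strand), which is known from cycling cells, had 88.6, 253.6 and 206.6 in the Mock libraries, against 214.8, 169.1 and 71.6 after the knock-down (log2 fold change -0.28, 95% interval -1.40 to 0.85, limma adjusted p = 0.845). Its values varied about as much within each group as over both, with an SD of 46.5% of the mean for Mock and 48.2% for the knock-down. Mxd1 (ENSMUSG00000001156, chromosome 6, 86647042 to 86669161, minus strand), which rises as cells differentiate, was scarce, with 45.5, 67.0 and 54.4 normalized counts in the Mock libraries, against 38.6, 60.0 and 63.5 after the knock-down (log2 fold change -0.06, 95% interval -0.82 to 0.71, limma adjusted p = 0.958). These intervals leave room for a change of the size seen for Mnt in either Mxd1 or Mxd3, so a change of that size would lie within the error here.

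Myc (ENSMUSG00000022346, chromosome 15, 61985391 to 61990374, plus strand) had 1096, 1428 and 1421 normalized counts in the Mock libraries, against 636.2, 942.5 and 1618 after the knock-down. HIF-1α-KD replicates 1 and 2 lay below every Mock library, and HIF-1α-KD replicate 3 lay above every one of them. The mean of 1315 ± 190 (SD, n = 3) for Mock stood beside 1066 ± 502 (SD, n = 3) for the knock-down (log2 fold change -0.40, SE 0.31, limma adjusted p = 0.625). Leaving out HIF-1α-KD replicate 3, the library with the high sum of leukocyte genes, gave a log2 fold change of -0.75 (limma adjusted p = 0.287), and leaving out HIF-1α-KD replicate 1 gave -0.08 (limma adjusted p = 0.928). The part of leukocytes in the Myc values was not tested. The genes most like Myc over the 6 libraries were Nfrkb (Pearson r = 0.992), Miip (r = 0.985), Map3k1 (r = 0.979), Mafk (r = 0.966) and Stard13 (r = 0.966), and none of these was called, their limma adjusted p running from 0.636 to 0.821.

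Mycn (ENSMUSG00000037169, chromosome 12, 12936093 to 12941914, minus strand), the MYC gene of embryonic and neural tissue, was close to the limit of detection. It had 3, 2 and 9 reads in Mock and 2, 0 and 1 reads after the knock-down. Mock replicate 3 held most of these reads, and in HIF-1α-KD replicate 2 a count of 0 allows up to 3 reads, or 3.60 normalized counts. With so few reads no fold change is given, and such limits cover counting error only.

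Max (ENSMUSG00000059436, chromosome 12, 76937269 to 76962201, minus strand), the shared partner of MYC and the MXD proteins, had 1497, 1619 and 1650 normalized counts in the Mock libraries, against 1306, 1962 and 1808 after the knock-down. The Mock values lay inside the wider range of the HIF-1α-KD values. The means were 1589 ± 80.9 (SD, n = 3) and 1692 ± 343 (SD, n = 3), a log2 fold change of 0.07 with a 95% interval of -0.33 to 0.47 (limma adjusted p = 0.899).

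In the MLX branch the values leaned the other way, without passing the threshold. Mlxip (ENSMUSG00000038342, chromosome 5, 123394798 to 123457932, plus strand), the MondoA gene, had 769.4, 1043 and 678.9 normalized counts in the Mock libraries, against 1099, 1119 and 1132 after the knock-down. All 3 HIF-1α-KD values were above the Mock values and close together, with an SD of 1.49% of the mean against 22.8% in Mock. The log2 fold change came to 0.45 (SE 0.18, limma adjusted p = 0.379), and it was 0.63 without Mock replicate 2 (limma adjusted p = 0.257) and 0.32 without Mock replicate 3 (limma adjusted p = 0.513). Mlx (ENSMUSG00000017801, chromosome 11, 101087277 to 101092207, plus strand), the partner of MLXIP, had 1865, 1816 and 1953 normalized counts in the Mock libraries, against 1968, 2476 and 2226 after the knock-down. The groups were separated by a narrow gap, between 1953 in Mock replicate 3 and 1968 in HIF-1α-KD replicate 1 (log2 fold change 0.24, SE 0.14, limma adjusted p = 0.526). Of the exon bases of Mxi1, 2.84% are shared with Gm10197 on the opposite strand. Of those of Mlx, 19.3% are shared with exons of Psmc3ip on the opposite strand, and the strand setting of the counting is not given in the sources used here.

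**Figure D2:**
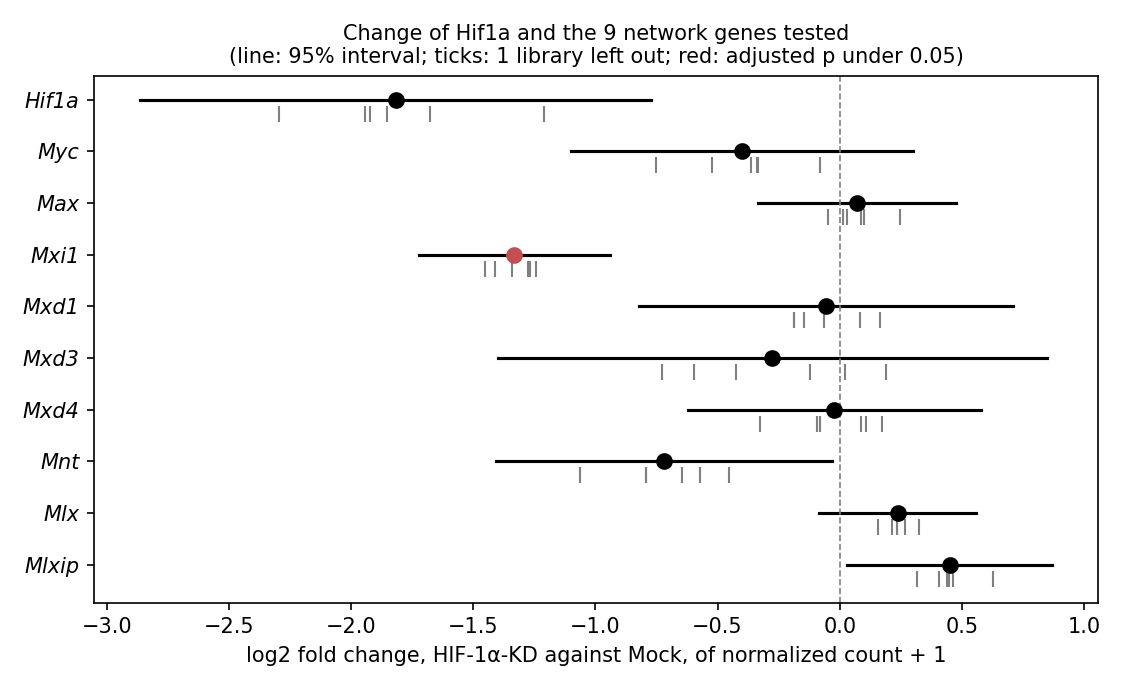
Log2 fold change of Hif1a and the 9 network genes tested (x axis), HIF-1α-KD against Mock, with its 95% interval as a line and the values with 1 library left out as ticks. Mxi1 stands at -1.33 with ticks between -1.45 and -1.24, and the ticks of Max, Mxd1, Mxd3 and Mxd4 lie on both sides of 0.

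Per length of gene model, Mlx had the most RNA of the network. In Mock cells the order of mean levels was Mlx (66.3 FPKM), Max (31.9 FPKM), Myc (28.9 FPKM), Mxd4 (16.9 FPKM), Mnt (15.4 FPKM), Mxi1 (11.99 FPKM), Mlxip (8.40 FPKM), Mxd3 (5.89 FPKM), Mxd1 (0.479 FPKM) and Mycn (0.110 FPKM). The ranges over Mock libraries overlapped between the neighbours Max and Myc, Mxd4 and Mnt, and Mlxip and Mxd3, so these orders cannot be told apart from the spread. The Mock range of Mxd4, from 10.38 to 22.05 FPKM, also overlapped those of Mxi1 and Mlxip. In HIF-1α-KD cells Mxi1 stood at 4.96 ± 0.621 FPKM (SD, n = 3), from 11.99 ± 1.06 FPKM (SD, n = 3) in Mock, and moved from rank 6 to rank 8, where its range overlapped that of Mxd3 (5.01 FPKM). Mlxip stood at 11.7 FPKM and Mnt at 10.2 FPKM in HIF-1α-KD cells, an order that is the reverse of that in Mock but with overlapping ranges. A level per length depends on the gene model used, which was 5000 bases for Mxi1 and 1130 bases for Mlx.

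**Figure D3:**
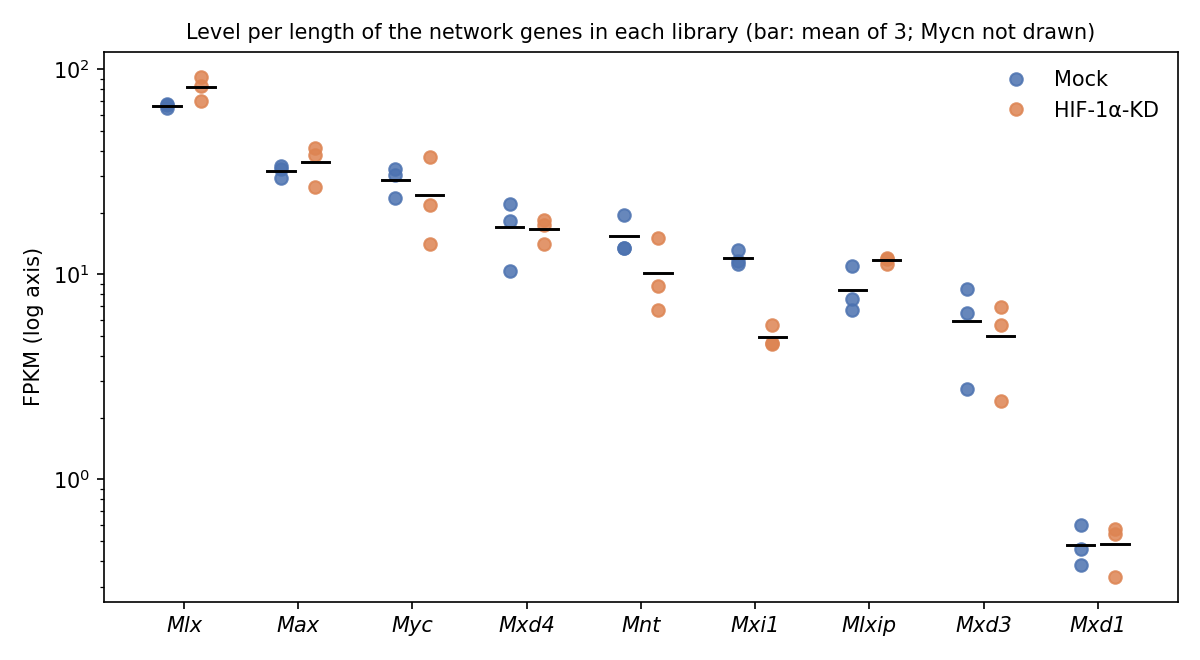
Level per length of 9 network genes (y axis, FPKM on a log scale) in each Mock and HIF-1α-KD library, with a bar at the mean of 3 libraries. Mlx is highest in both groups, Mxd1 lies under 1 FPKM, and Mxi1 shows the widest gap between the groups.

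Set side by side within a library, the RNA of the repressors relative to that of MYC spread more widely in HIF-1α-KD cells than in Mock. The summed FPKM of Mxi1, Mxd1, Mxd3, Mxd4 and Mnt was 2.04, 1.89 and 1.38 times that of Myc and Mycn in the Mock libraries and 3.21, 1.65 and 0.810 times in the HIF-1α-KD libraries. The HIF-1α-KD libraries thus spanned a wider range on both sides of the Mock values, with the highest ratio in HIF-1α-KD replicate 1 and the lowest in HIF-1α-KD replicate 3, in which Myc was lowest and highest. Mxi1 made up 27.5%, 18.1% and 27.4% of the repressor sum for Mock, against 12.5%, 12.7% and 15.3% after the knock-down, without overlap. The ratio of Mxi1 to Myc was 0.562, 0.343 and 0.380 for Mock, against 0.403, 0.210 and 0.124 after the knock-down, and here the groups overlapped through HIF-1α-KD replicate 1. Such ratios describe RNA and not the amount of dimers, and no p-value is given for them.

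**Figure D4:**
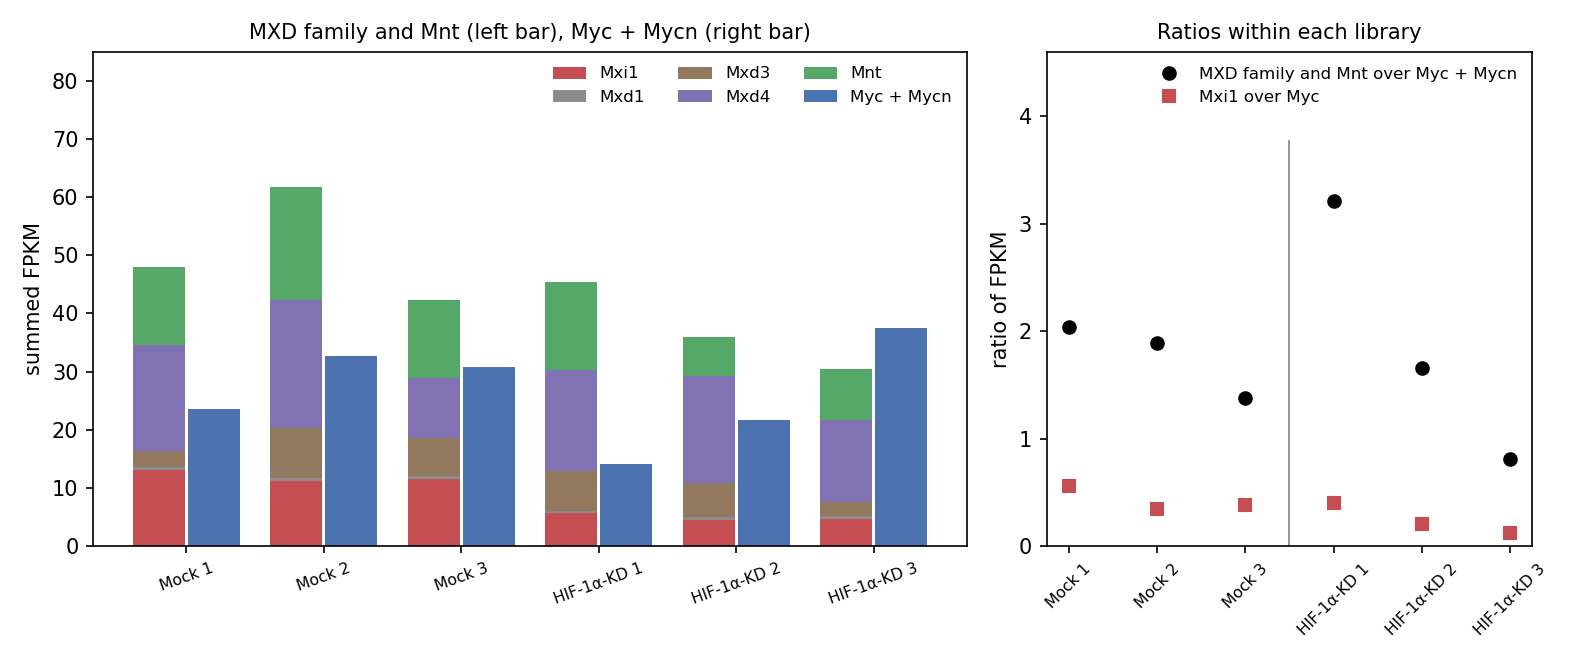
Left, summed FPKM of the MXD genes and Mnt, stacked by gene, beside that of Myc and Mycn in each of the 6 libraries. Right, the ratio of these sums and the ratio of Mxi1 to Myc in each library. The ratio of the sums runs from 1.38 to 2.04 for Mock and from 0.810 to 3.21 for the knock-down.

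Of 16 corepressor genes of the SIN3, histone deacetylase and NCOR complexes, 1 was called lower and 0 higher, where 0.383% and 0.00832% of all genes were. It was Sap30, which encodes a subunit of the SIN3 complex, with 1525, 1012 and 1578 normalized counts in the Mock libraries, against 469.7, 519.2 and 547.5 after the knock-down, without overlap (log2 fold change -1.39, SE 0.20, limma adjusted p = 0.0298). The genes of the SIN3 scaffolds were not called, with Sin3b at a log2 fold change of -0.29 (limma adjusted p = 0.504). Further members of the list with the largest differences were Ing2 (log2 fold change -0.52), a reader of histone methylation in the SIN3 complex, Arid4a (log2 fold change 0.69) and Ncor1 (log2 fold change 0.60), none of them called (limma adjusted p from 0.287 to 0.358). The median of the list was 0.03.

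None of the 12 MYC cofactor genes was called (limma, 0 of 12), and 3 had an unadjusted p-value under 0.05, all higher in HIF-1α-KD cells, where 7.04% of all genes were higher and 12.7% were under that limit in either direction. These were Bptf (log2 fold change 1.14), which encodes a nucleosome remodeling factor, Ep400 (log2 fold change 0.80) and Trrap (log2 fold change 0.67), which belong to the TIP60 acetyltransferase complex, with limma adjusted p-values between 0.268 and 0.339. Kat5, the TIP60 acetyltransferase itself, and Ruvbl2, a helicase of the complex, stood at log2 fold changes of -0.13 and -0.11 (limma adjusted p = 0.7 and 0.849). The edgeR test gave the same number, 3, at an unadjusted p-value under 0.05, and without HIF-1α-KD replicate 3 it was 1. Of 11 genes for the stability of the MYC protein none was called (limma, 0 of 11), and 3 had an unadjusted p-value under 0.05, by limma and by edgeR, beside the same 12.7% of all genes. Pim1, a kinase that phosphorylates and stabilizes MYC, had 407.5, 305.3 and 310.4 normalized counts in the Mock libraries, against 253.4, 122.3 and 192.9 after the knock-down (log2 fold change -0.89, limma adjusted p = 0.294). Usp36, a deubiquitinase of MYC, and Huwe1, a ubiquitin ligase of MYC, had log2 fold changes of 0.61 and 0.48 (limma adjusted p = 0.333 and 0.339), and Aurka, a kinase that shields MYCN, one of -0.44 (limma adjusted p = 0.515). Without Mock replicate 1 or without HIF-1α-KD replicate 3, 1 gene of the stability list was under that limit in each case. The median log2 fold change was 0.19 for the cofactors and 0.08 for the stability genes.

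In the lists of MYC-induced genes for ribosome production and for growth, no gene was called. Of 26 MYC-induced genes of ribosome production, none was called (limma, 0 of 26), and 22 had a log2 fold change above 0, where 52.7% of all genes tested did, with a median of 0.30. At an unadjusted p-value under 0.05, 4 were higher and 1 was lower, and the count of 5 became 9 without Mock replicate 3, 3 without Mock replicate 2, 3 without HIF-1α-KD replicate 2, 3 without HIF-1α-KD replicate 3 and 2 without Mock replicate 1. The edgeR test gave 4. Grwd1, a ribosome assembly factor, had the value farthest above 0 (log2 fold change 0.61, limma adjusted p = 0.311), and Nolc1, a nucleolar chaperone, had a log2 fold change of 0.56 (limma adjusted p = 0.484). Npm1, which encodes nucleophosmin, and Pes1, a ribosome assembly factor, stood at -0.37 and -0.33 (limma adjusted p = 0.476 and 0.392). Of 25 MYC-induced genes of growth and metabolism, none was called (limma, 0 of 25), 3 were higher and 1 lower at an unadjusted p-value under 0.05 (3 genes with edgeR), and the median was 0.16. Cdc25a, a phosphatase that drives the cell cycle, had 694.3, 879.5 and 849.2 normalized counts in the Mock libraries, against 1125, 1187 and 1147 after the knock-down (log2 fold change 0.52, limma adjusted p = 0.271). Eif4g1, a translation initiation scaffold, had a log2 fold change of 0.53, Prps2, which makes nucleotide precursors, -0.39, and Slc1a5, a glutamine transporter, -0.26 (limma adjusted p = 0.336, 0.339 and 0.693). The count of 4 became 6 without Mock replicate 3, 2 without HIF-1α-KD replicate 1, and 1 without Mock replicate 1 or without HIF-1α-KD replicate 3. Across all genes tested, 7.04% were higher and 5.69% lower at that limit, and the median was 0.02. Of 9 proliferation genes none was called (limma, 0 of 9). With limma 1 was under 0.05 without adjustment, Ccnb1 (log2 fold change -0.76, limma adjusted p = 0.382), with edgeR 2 were, and with 1 library left out between 0 and 3 were. Mki67, the Ki-67 gene, had 225.3, 919.7 and 1012 normalized counts in the Mock libraries, against 1557, 687.1 and 2344 after the knock-down (log2 fold change 1.19, limma adjusted p = 0.46). Mcm2, of the replicative helicase, and Ccna2, which encodes cyclin A, had log2 fold changes of 0.36 and -0.36 (limma adjusted p = 0.556 and 0.495).

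Genes that MYC and HIF-1 are both known to drive lay on the lower side. All 9 of them, for glucose uptake, glycolysis and VEGF, lay lower in every HIF-1α-KD library than in any Mock library, and 5 were called lower, Slc2a1 (log2 fold change -1.83), Pdk1 (log2 fold change -1.57), Ldha (log2 fold change -1.15), Gapdh (log2 fold change -1.09) and Tpi1 (log2 fold change -1.06), with limma adjusted p-values between 0.0242 and 0.0281. Of all genes, 8.75% lay without overlap below Mock and 0.383% were called lower. Pkm (log2 fold change -0.81) and Eno1 (log2 fold change -0.84), glycolytic enzymes, were not called (limma adjusted p = 0.0827 and 0.107). The median was -1.06. Of 12 further HIF target genes, 6 were called lower, and among these 6, Bnip3 (log2 fold change -2.70) and Ankrd37 (log2 fold change -2.60) were the farthest. The median of the 12 was -1.75, farther from 0 than the value of Mxi1. The others called were Ero1l (log2 fold change -1.98), Egln1 (log2 fold change -1.65), Bnip3l (log2 fold change -1.65) and Higd1a (log2 fold change -1.34), and the limma adjusted p-values of all 6 ran from 0.0205 to 0.0402. Among those not called, Car9, a carbonic anhydrase, had a log2 fold change of -2.93 (limma adjusted p = 0.0553) and Egln3 one of -1.99 (limma adjusted p = 0.21). Both lists were chosen with results of these libraries known, and they are no independent evidence of their direction.

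Of 9 tested genes that MYC is known to repress, 2 were called lower and 0 higher, where 0.383% of all genes were called lower. This list too was chosen with earlier results of these data known and is no independent evidence of its direction. Whether MYC had a part in these differences was not tested. The groups did not overlap in 4 of the 9, with HIF-1α-KD below, where 8.75% of all genes lay so, and overlapped in 5, and the log2 fold changes, all below 0, had a median of -0.46, where 52.7% of all genes had one above 0. Cdkn1a, which encodes the cell cycle inhibitor p21, had 1735, 1238 and 2119 normalized counts in the Mock libraries, against 604.0, 484.4 and 544.1 after the knock-down, without overlap (log2 fold change -1.61, SE 0.21, limma adjusted p = 0.0245). Ndrg1, a stress gene that hypoxia is known to induce, had a log2 fold change of -1.59 (limma adjusted p = 0.0245). Cdkn1b, which encodes the inhibitor p27, had 1717, 1217 and 1106 in the Mock libraries, against 568.6, 619.9 and 697.7 after the knock-down (log2 fold change -1.08, limma adjusted p = 0.0934), and Gadd45b, a stress gene, a log2 fold change of -0.76 (limma adjusted p = 0.539).

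Of 10 tested targets of the MLX branch none was called (limma, 0 of 10), and at an unadjusted p-value under 0.05, 4 were lower and 1 was higher (4 genes with edgeR, and 3 without Mock replicate 1, 3 without Mock replicate 3 and 2 without HIF-1α-KD replicate 3). Of all genes, 5.69% were lower and 7.04% higher at that limit. The log2 fold changes of the 10 genes had a median of 0.25, with 6 above 0 and 4 below. Txnip, the best known MondoA target and a brake on glucose uptake, had 9037, 7574 and 4654 normalized counts in the Mock libraries, against 2563, 4167 and 4469 after the knock-down, so that the groups were separated by a narrow gap (log2 fold change -0.91, SE 0.28, limma adjusted p = 0.287). Arrdc4, a relative of Txnip with the same regulator, had a log2 fold change of 0.52 (limma adjusted p = 0.668) with overlapping groups, and Acacb, an acetyl-CoA carboxylase, one of 0.91 (limma adjusted p = 0.48). Klf11, a Krüppel-like factor, had a mean of 218.5 ± 32.4 (SD, n = 3) normalized counts for Mock and 82.8 ± 9.51 (SD, n = 3) for the knock-down (log2 fold change -1.38, limma adjusted p = 0.0684). Among 9 other E-box factors none was called (limma, 0 of 9), and Bhlhe40, a hypoxia-induced repressor, was the one gene under 0.05 without adjustment by limma and by edgeR, 2 genes being so without Mock replicate 1 or 3 (log2 fold change -1.12, limma adjusted p = 0.13). That count of 1 of 9 is close to the 12.7% of all genes under that limit. The farthest of the rest were Bhlhe41 (log2 fold change -0.39), Mitf (log2 fold change 0.45) and Srebf2 (log2 fold change 0.30), with limma adjusted p-values between 0.541 and 0.679. Of the further network genes Mycl, Mlxipl and Mga, only Mga, whose product pairs with MAX in a Polycomb complex, passed the low-count filter (log2 fold change 0.30, limma adjusted p = 0.493).

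In all, 14 of the 149 tested genes of these lists were called by limma, 14 lower and 0 higher. Over all genes 46 were called lower and 1 higher, which is 0.391% of those tested. Of the 14, 6 were HIF targets and 5 were genes shared by MYC and HIF-1. The lists were chosen with earlier results of these data known, so no count over them is independent evidence. DESeq2 called 22 list genes lower and 1 higher, and over all genes 187 lower and 96 higher. With 1 library left out, the number was 2, 6 and 0 without Mock replicates 1, 2 and 3, and 11, 0 and 3 without HIF-1α-KD replicates 1, 2 and 3. Without adjustment 51 of the 149 were under 0.05 with all libraries, 15 higher and 36 lower, where 12.7% of all genes were. Their number ran from 35 (4 higher and 31 lower) without HIF-1α-KD replicate 3 and 36 (6 higher and 30 lower) without Mock replicate 1 to 55 (22 higher and 33 lower) without Mock replicate 3, and that of all genes from 1025 to 1565 with 1 library left out.

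**Figure D5:**
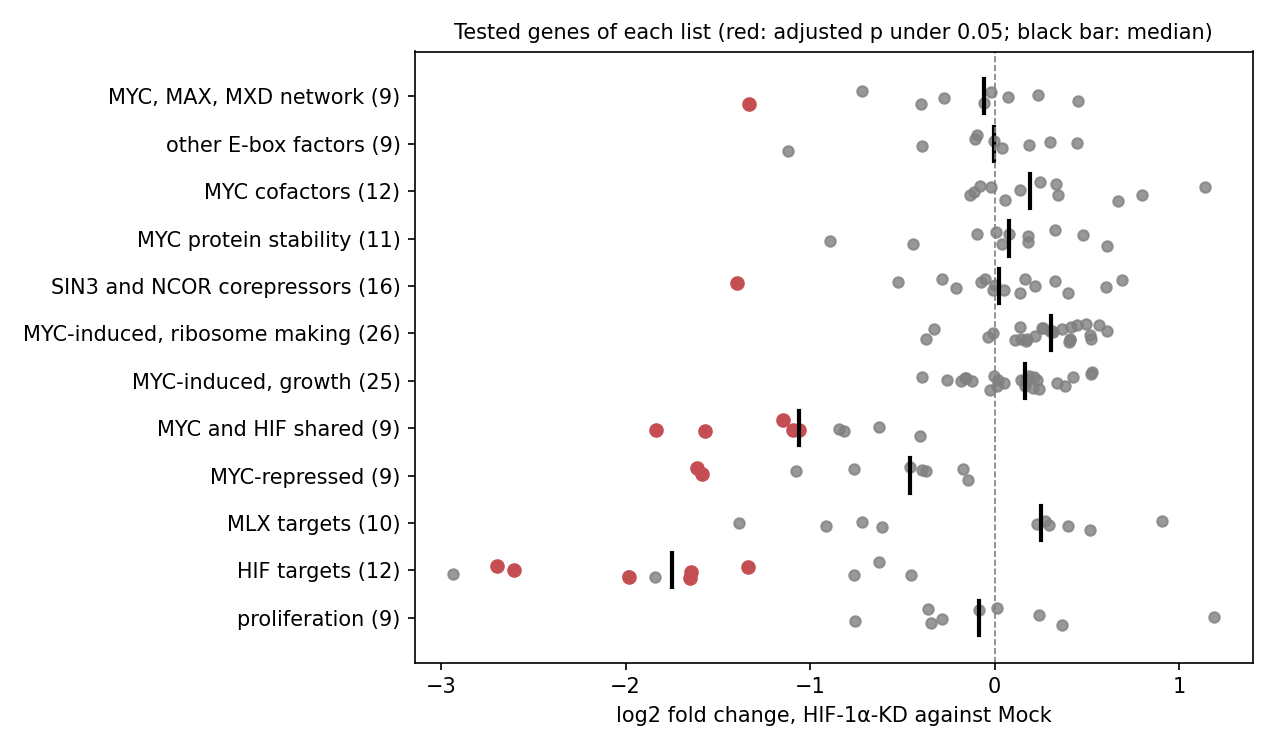
Log2 fold change, HIF-1α-KD against Mock (x axis), of each tested gene of the network and of 11 lists of linked genes, with the number of genes in parentheses and the median as a bar. The genes called lower, in red, lie in the network (Mxi1), the corepressors (Sap30), the MYC-repressed genes (Cdkn1a and Ndrg1) and the lists named for HIF. Mxi1 is also a known HIF-1 target, and hypoxia is known to induce Ndrg1. No gene shown was called higher, and 46 of the 47 genes called over the whole table were lower.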

How the data were processed

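The 6 libraries (Mock, n = 3, and HIF-1α-KD, n = 3) were grouped by their titles. According to the methods, the authors selected poly-A RNA, used STAR, featureCounts and DESeq2, and named GRCh38, whereas the submitters' processing notes name GRCm38, STAR and edgeR, and the identifiers are mouse. The authors deposited normalized counts, a signal of reads divided by 1 factor per library and printed to 4 significant digits, from which reads were recovered (100% of values up to 300 reads were whole within 0.1). The authors also deposited FPKM, gene width and GC content as a fraction. Their own log2 ratios and p-values, deposited in the same table, were not used.

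Genes were filtered with filterByExpr of edgeR 4.0.16 (minimum count of 10), which left 12014. The main test was limma 3.58.1 on normalized counts plus 1 in log2, with the prior variance allowed to follow the mean, two-sided, with Benjamini-Hochberg adjustment. On the recovered reads edgeR and DESeq2 1.42.0 (R 4.3.3) were alternatives, beside other scalings, pseudocounts, filters, a replicate block and leaving out each library. The scripts were tested on simulated data. Positions are from GENCODE M21 (GRCm38). The members and lists were chosen with earlier results of these data known. Genes named are the network, Hif1a, the called genes and the 2 farthest on each side, and the 5 genes most like Mxi1 and Myc. Trrap was named after its values were seen. Pvt1 was not analysed here.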

Additional observations from a re-analysis of the deposited data

How the results depend on the processing

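Mxi1 kept its direction under all 17 alternatives, with log2 fold changes between -1.45 and -1.24 when 1 library was left out. Beside 5 of the 6 fits with 1 library left out, it lost its call in limma without the trend (log2 fold change -1.33, limma adjusted p = 0.0987) and with a replicate block (log2 fold change -1.33, limma adjusted p = 0.0649), in which 0 of all genes (1324 at an unadjusted p-value under 0.05), 0 network genes (1 at an unadjusted p-value under 0.05) and 0 list genes (52 at an unadjusted p-value under 0.05) were called. Whether the replicate numbers pair the libraries is not given in the sources used here. Deviations of same-numbered libraries from their group means had correlations of -0.139, -0.123 and 0.0228. With means of 3 libraries per group, these correlations cannot decide whether the libraries were paired. Over all genes, 47 were called with limma, 47 with edgeR, 283 with DESeq2 and 1 without the trend, and between 0 and 38 with 1 library left out. Network genes called numbered 0 without the trend (1 at an unadjusted p-value under 0.05) and 1 with limma, edgeR and DESeq2, and between 0 and 1 with 1 library left out. Those at an unadjusted p-value under 0.05 numbered 3 with limma and DESeq2, 1 with edgeR, and between 1 and 2 with 1 library left out. List genes called numbered 15 with edgeR, 23 with DESeq2, 0 without the trend (44 at an unadjusted p-value under 0.05), and between 0 and 11 with 1 library left out. With 1 library left out, the log2 fold change ran from -0.047 to 0.25 for Max, from -0.19 to 0.16 for Mxd1, from -0.73 to 0.19 for Mxd3 and from -0.33 to 0.17 for Mxd4, which was 0.034 with scaling by library size. The mean ratio of repressors to Myc and Mycn was 1.77 for Mock and 1.89 for the knock-down with FPKM, 2.76 and 2.63 with normalized counts, where the order of the groups turned, and 1.23 and 1.36 without Mnt. The causes of these shifts were not tested.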
